A study of Mus musculus with 26 samples.

Results

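The early response to retinoic acid was examined in mouse embryonic stem cells that lack NAP1L1, by comparing the RNA of the full knockout line at day 2 with the same line at day 0. The libraries were chosen by their labels: 3 libraries of the full knockout at day 2 and 2 at day 0, 5 of the 26 libraries of the series. All libraries come from KH2, an embryonic stem cell line, with genotype wild-type (WT), NAP1L1 alpha knock-out (alphaKO) or NAP1L1 knock-out (fullKO), harvested at day 0, 2 or 4 of differentiation induced with retinoic acid. Polyadenylated RNA was sequenced from whole cultures with a stranded kit. WT and alphaKO at days 0 and 2, with 3 libraries in each group, were used to ask where the response of the fullKO line differed. The column names of the fullKO libraries share 1 prefix, so the line may be 1 clone, and a difference from WT may belong to that clone as well as to the genotype. The labels do not say whether libraries of a group came from separate cultures, so every p-value measures the spread between these libraries, which may be technical. No culture kept without retinoic acid until day 2 was analysed here, so the effects of retinoic acid and of 2 days in culture cannot be told apart.

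Retinoic acid is made from retinol by retinol and retinaldehyde dehydrogenases, is carried in the cell by CRABP proteins and is broken down by CYP26 enzymes. It binds retinoic acid receptors, which sit on DNA as heterodimers with retinoid X receptors and switch on target genes such as the Hox genes, which give cells their position along the body axis. In embryonic stem cells this ends the self-renewing state held by Oct4 (Pou5f1), Sox2 and Nanog and starts differentiation. NAP1L1 is a histone chaperone, a protein that carries H2A-H2B histone dimers and helps to assemble and take apart nucleosomes.

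Nap1l1 itself (chromosome 10, 111473223 to 111498150, mm10) was measured at 397 and 401 CPM in the 2 fullKO libraries of day 0 and at 369, 364 and 367 CPM in the 3 of day 2, against 1010.4, 997 and 1068 CPM in WT at day 0 and 857, 861 and 856 CPM in WT at day 2. CPM is a gene's count as a share of its library, in parts per 1e6, after scaling by TMM, a trimmed mean that sets library size from genes that do not stand apart. Every fullKO library was below every WT library, but transcript of the gene was still counted. The RNA level alone therefore does not establish the genotype. Which exons were removed is not given in the sources used here. Between days the log2 fold change of Nap1l1 in fullKO was -0.12 ± 0.04 (SE; adjusted p = 0.0119), a small fall that was not called without replicate 1 of day 0 (adjusted p = 0.0651) and had the opposite sign when libraries were scaled by total count (0.07).

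The 26 libraries held 13537267 to 20569706 counts and the 5 fullKO libraries 16813172 to 19843721, so depth differed little between the days. Stem cell identity was present at day 0: the 7 markers Pou5f1, Nanog, Sox2, Zfp42, Esrrb, Utf1 and Dppa5a summed to 3961 and 3969 CPM and none was at 0. Their sum was 1063 to 1171 CPM in fullKO at day 2, against 3035 to 3194 CPM in WT at day 0 and 400.4 to 411 CPM in WT at day 2. In RNA of whole cultures, fewer cells of a type and less RNA per cell cannot be told apart. The summed level of 7 fibroblast markers, which feeder cells would carry, was 220 to 333 CPM in fullKO at day 0 and 65.9 to 76.6 CPM at day 2. In WT it was 2095 to 2777 and 579 to 650.3 CPM, so WT held more of this RNA on both days. The 7 trophoblast markers summed to 92.8 to 104 CPM in fullKO at day 0 and 51.9 to 61.3 CPM at day 2, with Prl3d1 at 0 on both days. At day 0 the sum was nearly all Tfap2c, which stem cells share and which fell (log2 fold change -2.15). The other 6 were each under 1 CPM in every library of day 0, and at day 2 only Elf5 and Prl3d1 were. The fall of the sum thus does not describe most of these markers. Blood cell markers summed to at most 11.4 CPM. The share of counts from mitochondrial genes was 1.08% and 1.12% at day 0 and 1.66% to 1.85% at day 2.

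Of 18412 genes with enough counts to test, 6176 rose between day 0 and day 2 in fullKO (33.5%) and 5787 fell (31.4%) at an adjusted p under 0.05 (edgeR quasi-likelihood test, Benjamini-Hochberg over all genes). Changes of at least 2-fold were less balanced: 3364 genes rose (18.3%) and 1727 fell (9.38%) by that much. The libraries of the 2 days did not overlap for 13961 genes (75.8%), so non-overlap by itself marks little. These shares are the background for every group of genes below, and the median log2 fold change over all tested genes was 0.07. Where none of a group is said to have moved in a direction, the count was also 0 in edgeR at an unadjusted p under 0.05 and in DESeq2, except where a gene is named. Most of the response was shared with WT, in which 6756 genes rose (36.7%) and 6258 fell (34%). The 5007 genes that rose in both lines were 81.1% of those that rose in fullKO and 74.1% of those that rose in WT, and the 4810 that fell in both were 83.1% and 76.9%. The 2 lines moved in opposite directions for 174 genes that rose in fullKO and 216 that fell.

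The size of the response differed more than its direction. Over 9750 genes called in WT with at least 5 CPM in a WT group, the slope of the fullKO change on the WT change was 0.91 (total least squares, Pearson r = 0.896), a description across genes that share the same libraries. Among the 1556 of them that fell by at least 2-fold in WT, the median log2 fold change was -1.47 in WT, -1.06 in fullKO and -1.19 in alphaKO. The difference of change, fullKO minus WT, was tested in the same model. Of these 1556 genes, 895 fell less in fullKO and 54 fell more. Among 1807 that rose by at least 2-fold in WT, medians were 1.69 in WT, 1.43 in fullKO and 1.34 in alphaKO, with 722 rising less and 193 more. Because these genes were chosen on the WT change, part of the smaller fullKO value can come from that choice. Over all tested genes the difference from WT was positive for 2897 (15.7%) and negative for 2363 (12.8%). The difference from alphaKO, which uses the same fullKO libraries, was positive for 1584 (8.6%) and negative for 1460 (7.93%). That split was 2189 and 840 with total-count scaling, and without replicate 1 of fullKO day 0 it was 1200 and 825.

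**Figure D1:**
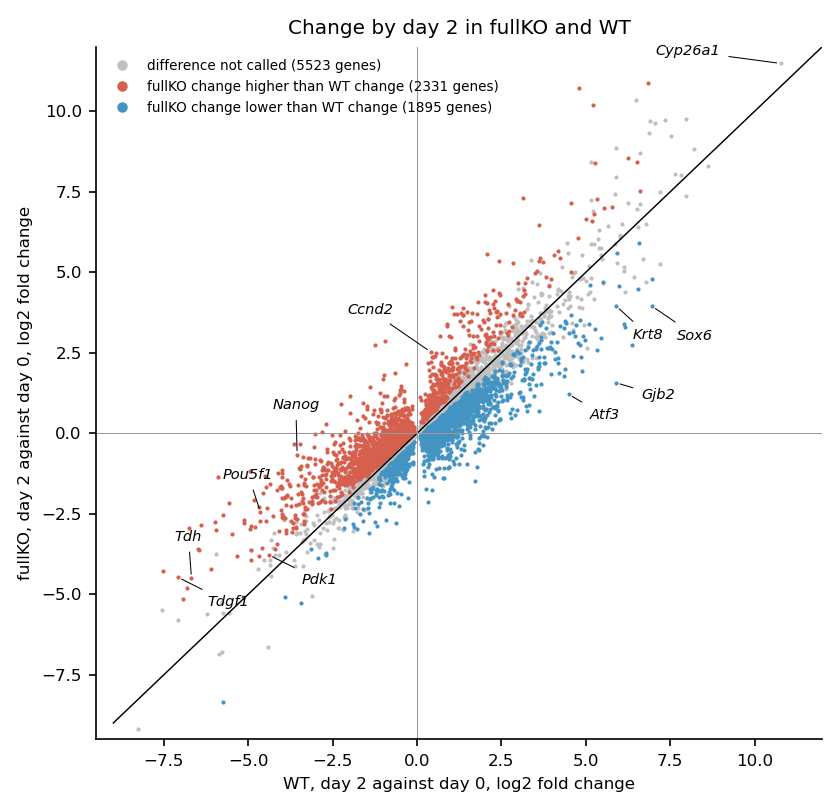
Each point is 1 gene called in WT with at least 5 CPM in a WT group; the x axis is the log2 fold change of day 2 over day 0 in WT and the y axis that in fullKO, with the diagonal marking equal change and colours marking genes whose difference of change was called. Most points lie in the lower left and upper right of the plot, and many genes that fell in WT lie above the diagonal, such as Nanog at -3.55 in WT and -0.67 in fullKO.

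Genes that handle retinoic acid were among the most induced. Of 16 tested genes of retinoid metabolism and transport, 10 rose, all of them by at least 2-fold, and 4 fell. The median log2 fold change was 2.61 against 3.14 in WT, where 13 rose and 1 fell. In alphaKO 14 rose and 2 fell. Cyp26a1 (chromosome 19, 37697798 to 37701536, mm10), the enzyme that clears retinoic acid, was at 0 and 0.132 CPM at day 0 and at 206, 205 and 192 CPM at day 2. The 2 days were far apart: 2 counts in all at day 0 against 11885 at day 2, a ratio of 3211-fold (exact 95% counting interval 889 to 26514), an interval that covers counting error only. The related enzymes Cyp26b1 and Cyp26c1 rose as well, Cyp26b1 from a mean of 1.09 to 39.2 CPM (log2 fold change 5.15 ± 0.20). For Cyp26c1, the 2 counts at day 0 against 296 at day 2 gave a ratio of 80.0-fold (exact 95% counting interval 21.9 to 663). Stra6, the membrane receptor that takes up retinol, was at 0.535 and 0.396 CPM at day 0 and 85.8, 89.1 and 82.1 CPM at day 2 (log2 fold change 7.49 ± 0.18). Dhrs3, which turns retinaldehyde back to retinol, went from 0.773 and 0.33 to 79.9, 72.3 and 70.7 CPM (7.03 ± 0.17). For both genes the 3 libraries of day 2 stood close together and far above the 2 of day 0.

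Carriers of retinoids moved in both directions. Crabp2, which hands retinoic acid to its receptor, rose from 2.5 and 1.98 to 61.3, 58.9 and 54.8 CPM (4.69 ± 0.12). Crabp1, the other cellular retinoic acid binding protein, fell from 40.8 and 34.5 to 4.51, 3.63 and 2.26 CPM (-3.43 ± 0.17). The 2 binding proteins thus moved in opposite directions, with no overlap between days for either. Rdh10, which oxidises retinol, rose by 1.45. Aldh1a3, which makes retinoic acid from retinaldehyde, rose by 2.03, a call lost without replicate 2 of day 0 (1.32, adjusted p = 0.0881). Aldh1a2, another retinaldehyde dehydrogenase, was called lower, but not with total-count scaling (-0.40) or a replicate block (-0.46). Lrat, which esterifies retinol for storage, had 3 counts at day 0 and 55 at day 2, a ratio of 9.91-fold (exact 95% counting interval 3.22 to 49.5). Against WT, Dhrs3 rose more in fullKO (difference of change 1.23 ± 0.40, adjusted p = 0.0171), and Rdh10 (-1.17 ± 0.18) and Crabp2 (-0.83 ± 0.21) rose less. These calls for Dhrs3 and Crabp2 rested on single libraries: without replicate 2 of fullKO day 0 the value for Dhrs3 was 0.77 (adjusted p = 0.261), without replicate 1 of WT day 0 it was 0.97 (adjusted p = 0.106), and without replicate 1 of fullKO day 0 that for Crabp2 was -0.62 (adjusted p = 0.134).

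Among 19 tested receptors, partner nuclear receptors and cofactors, 7 rose and 11 fell (7 and 7 with total-count scaling). Rarb, a receptor gene that is itself a direct target of retinoic acid, was at 0.0595 and 0.33 CPM at day 0 and 16.3, 16.7 and 16.5 CPM at day 2 (log2 fold change 6.4 ± 0.26, adjusted p = 3.4e-25). Rarg moved the other way, from 273 and 243 to 101, 99.5 and 86.5 CPM (-1.43 ± 0.06), and Rara fell by 0.24 (-0.05 and not called with total-count scaling). The fall of Rarg was smaller than in WT, where it was -2.69 (difference 1.26 ± 0.09). Nrip1, a ligand-dependent corepressor, rose from a mean of 20.3 to 271 CPM (3.74; 3.66 in WT). The orphan receptor Nr2f2 (COUP-TFII) rose by 3.8, more than in WT (2.36), and Nr6a1 (GCNF), a repressor of Oct4, rose by 1.55 against 0.93 in WT.

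A direct repeat of 2 copies of a short motif with 5 bases between them (DR5) is the classic element bound by the receptor heterodimer. RefSeq promoters on GRCm38.p6, from 250 bases before to 50 after each start, were searched on both strands for 2 copies in the same direction, with spacings of 5 (DR5), 2 (DR2) or 1 (DR1) bases. A copy was spelled AGGTCA in the consensus form; the spelling AGTTCA was taken too, as were the spelling GGGTCA and the spelling GGTTCA. A DR5 was present in a promoter of 31 of 27025 genes (0.115%), a DR2 in 84 (0.311%) and a DR1 in 71 (0.263%). Of 12599 tested genes with a promoter in the table, 9 held a DR5 (0.0714%); of the 2168 that rose by at least 2-fold, 6 did (0.277%), and of the 1168 that fell by at least 2-fold, 1 did (0.0856%). A DR2 was held by 15 tested genes (0.119%), 5 of those that rose (0.231%) and 0 of those that fell. A DR1 was held by 35 tested genes (0.278%), 5 of those that rose (0.231%) and 2 of those that fell (0.171%), so its share was not higher among the genes that rose. These are counts of letters, not of bound sites. Cyp26a1 and Rarb were the 2 genes of the retinoic acid and Hox lists with a DR5 here, among members with a promoter in the table. Such members were 11 of 16 genes of retinoid metabolism and transport, 16 of 19 receptors and cofactors and 9 of 20 targets. Among Hox genes they were 9 of 15 anterior ones and 12 of 23 others. The remaining members were not searched. Slc25a21, a mitochondrial carrier with no count at day 0 and at least 67.7-fold more at day 2, held a DR2. The 250 bases before the start of these 3 genes are shown because their RNA went from at most 0.33 CPM to between 5.99 and 206 CPM; each is written 5′ to 3′ on the strand of the gene, and capitals mark the 2 copies. In Cyp26a1 (chr19:37697558-37697807, plus strand) the DR5 lies on the minus strand and begins 32 bases before the start, in Rarb (chr14:16575477-16575726, minus strand) it lies on the strand of the gene 53 bases before, and in Slc25a21 (chr12:57197473-57197722, minus strand) the DR2 lies on the strand opposite to the gene 124 bases before.
Cyp26a1: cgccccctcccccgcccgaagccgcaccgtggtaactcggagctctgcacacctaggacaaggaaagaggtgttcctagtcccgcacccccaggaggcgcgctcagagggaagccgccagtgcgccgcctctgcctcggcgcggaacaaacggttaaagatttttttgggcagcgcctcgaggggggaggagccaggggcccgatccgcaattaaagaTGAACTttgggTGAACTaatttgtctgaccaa
Rarb: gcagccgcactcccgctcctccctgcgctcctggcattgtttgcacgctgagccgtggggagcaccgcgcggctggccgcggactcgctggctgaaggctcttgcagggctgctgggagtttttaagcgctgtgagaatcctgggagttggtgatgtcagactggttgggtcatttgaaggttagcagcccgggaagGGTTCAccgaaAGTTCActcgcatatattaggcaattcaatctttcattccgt
Slc25a21: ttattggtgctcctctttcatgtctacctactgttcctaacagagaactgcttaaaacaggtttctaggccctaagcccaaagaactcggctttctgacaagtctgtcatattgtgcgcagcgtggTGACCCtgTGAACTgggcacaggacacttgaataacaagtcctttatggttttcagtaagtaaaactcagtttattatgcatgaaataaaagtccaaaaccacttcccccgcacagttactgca

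All 20 tested genes of a list of transcription factors and other genes that retinoic acid is known to switch on rose in fullKO, with a median log2 fold change of 4.23 against 3.92 in WT and 3.45 in alphaKO. Stra8, the gate to meiosis in germ cells and a retinoic acid target in stem cells, was at 11.9 and 14.1 CPM at day 0 and 606, 615 and 650.0 CPM at day 2 (5.59 ± 0.07). Cdx1, a regulator of Hox genes, went from 8.69 and 8.12 to 47.2, 46.9 and 46.9 CPM (2.48 ± 0.13), and its relative Cdx2 from 0.178 and 0.33 to 12, 12.6 and 13.3 CPM (5.61 ± 0.38). Both genes showed no overlap between days. In alphaKO Cdx1 rose by 0.34 (difference 2.14 ± 0.16, adjusted p = 5.3e-14) and Cdx2 by 3.16 (difference 2.45 ± 0.58, or 2.09 and not called without replicate 1 of fullKO day 0, adjusted p = 0.0507), and in WT they rose by 3.03 and 4.47. The Hox cofactors Meis1 and Meis2 rose by 5.41 and 5.77, beside 5.48 and 5.44 in WT, with no called difference. Within this list, the largest rises with at least 5 CPM were those of Arg1, Zfp703 and Foxa1. Arg1, the urea cycle arginase, had 2 counts at day 0 (ratio 416-fold, exact 95% counting interval 115 to 3440.5). The transcriptional corepressor Zfp703 rose by 7.28 ± 0.11, and Foxa1, a pioneer factor of endoderm, by 6.43 ± 0.18.

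Of these targets, 6 rose more in fullKO than in WT and 4 rose less. Zfp703 went from a mean of 1.76 to 278 CPM in fullKO and from 7.43 to 303 CPM in WT (difference of change 1.93 ± 0.19). Plat, the tissue plasminogen activator, rose by 4.12 in fullKO and 2.31 in WT (1.81 ± 0.17). On the other side, Ripply3, a repressor of Tbx1 activity, rose by 1.54 against 3.67 in WT (-2.13 ± 0.53; -1.39 and no longer called without replicate 2 of fullKO day 0), and the transglutaminase Tgm2 by 0.73 against 2.41 (-1.68 ± 0.23). The counts are 6 and 4 of 20, next to 15.7% and 12.8% of all genes. From alphaKO, 9 targets differed upwards and none downwards at an adjusted p under 0.05 in edgeR.

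**Figure D2:**
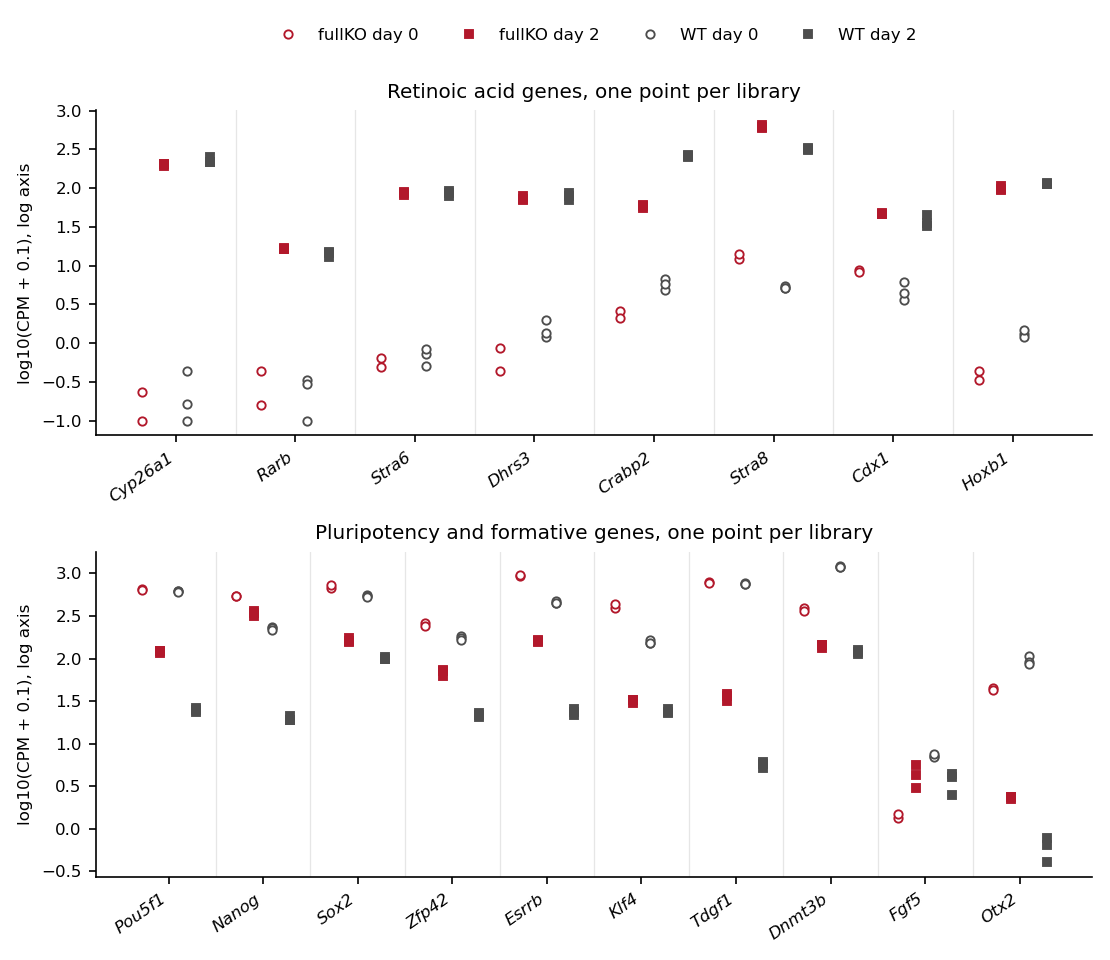
Each point is 1 library of fullKO or WT at day 0 or day 2, on a log10 axis of CPM with 0.1 added, for 8 genes of the retinoic acid response and 10 of pluripotency and the formative state. The fullKO libraries of day 2 sit close together, Cyp26a1 stands at 192 to 206 CPM at day 2, and Nanog stays at 320 to 367 CPM in fullKO at day 2, above all WT libraries of that day.

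Hox genes rose in all 4 clusters. Of 15 anterior Hox genes (paralog groups 1 to 5), 14 rose and none fell, with a median of 6.67. Hoxb1, an early responder to retinoic acid, was at 0.238 and 0.33 CPM at day 0 and 94, 98.2 and 105 CPM at day 2 (8.42 ± 0.17, adjusted p = 3.2e-37). Every library of day 2 was far above both libraries of day 0. Hoxa5 had 1 count at day 0 and stood at 71.8, 75.5 and 70.7 CPM at day 2, a ratio of 2322-fold (exact 95% counting interval 416 to 91720). Hoxb5 and Hoxb2 had no count at day 0 and were at 48.7, 51.1 and 44 and 11.9, 13 and 12 CPM at day 2. A limit of 3 counts over the 2 day 0 libraries (0.0938 CPM) puts Hoxb5 at least 511-fold higher and Hoxb2 at least 131-fold higher at day 2. The D cluster moved least among anterior genes: Hoxd1 rose from a mean of 0.251 to 2.02 CPM, and Hoxd4, at 0.422 CPM at day 2, was the single member not called (log2 fold change 1.4, adjusted p = 0.0992); without replicate 1 of day 0 its adjusted p was 0.00906.

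Of 23 tested Hox genes of groups 6 to 13, 21 rose and none fell, with a lower median of 3.15. Hoxb8 and Hoxb9 reached a mean of 67.7 and 42.7 CPM from 0.591 and 1.77 CPM (6.82 ± 0.18 and 4.58 ± 0.16). Hoxb6 was at 0.119 and 0.264 CPM at day 0 and 29.6, 28.2 and 25.3 CPM at day 2 (7.15 ± 0.29). In the C cluster Hoxc8 and Hoxc9 reached 22.2 and 20.6 CPM (5.45 and 5.87). The last genes of the clusters stayed low: Hoxa13 and Hoxc12 were not called and were at 0.184 and 0.118 CPM at day 2, with Hoxc12 called lower (adjusted p = 0.00954) without replicate 1 of day 2. Hoxc13 and Hoxd13 rose from 2.39 and 1.21 to 3.69 and 3.81 CPM, Hoxc13 with a call that was lost without either library of day 0 (0.56 and 0.69) or without replicate 1 of day 2 (0.49).

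Compared with WT, the difference of change was positive for 7 of the 15 anterior genes and 9 of the 23 others, and negative for 1, Hoxc13 (-2.13 ± 0.39). Hoxb1 is an example: fullKO started lower, at 0.284 CPM against 1.23, 1.11 and 1.39 CPM in the 3 WT libraries of day 0, and ended at 99.2 against 112, 115 and 115 CPM (difference of change 1.91 ± 0.42, adjusted p = 0.00041). Hoxb5 and Hoxb2 had means of 0.667 and 0.555 CPM in WT at day 0 and of 62.3 and 15.6 CPM at day 2. Their WT levels at day 2 were thus above those of fullKO, and the larger fullKO change came with a lower start. For Hoxb6 and Hoxb7 the differences were 2.59 ± 0.59 and 2.92 ± 0.55, for Hoxa10 1.94 ± 0.39. Some positive calls outside the anterior genes rested on single libraries. Those of Hoxa9 (1.24) and Hoxb9 (0.42) were lost without replicate 3 of WT day 0, and that of Hoxd13 (0.92) without replicate 3 of WT day 2. Without replicate 2 of fullKO day 0, which leaves 1 library, Hoxb9 differed by 0.43 and Hoxc8 by 1.11, beside 0.67 and 1.22 with all libraries. The summed fibroblast markers were higher in WT at day 0 as well, and fibroblasts can carry Hox RNA; their part in these differences was not tested.

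The pluripotency network was taken down, but less far than in WT. Of 16 genes of the naive state, 14 fell and 1 rose, with a median log2 fold change of -1.77, against -3.28 in WT and -2.17 in alphaKO. Nanog was at 549 and 539 CPM at day 0 and at 367, 320.2 and 340.5 CPM at day 2 (-0.67 ± 0.05, adjusted p = 1.7e-15). In WT it was at 237, 229.8 and 219 CPM and then 18.6, 20.9 and 19 CPM (-3.55 ± 0.06). The fullKO libraries of day 2 lay above every WT library of day 2, and the difference of change was 2.88 ± 0.08 (adjusted p = 5.9e-29). Esrrb, an orphan receptor of the naive state, fell from 944 and 952 to 166, 156 and 161 CPM (-2.56; -4.28 in WT). Zfp42 (Rex1) fell by 1.89, against a log2 fold change of -3.0 in WT, and Tfcp2l1 from 1732 and 1841 to 650.1, 640.2 and 706 CPM (-1.42 and -2.52). The largest falls in the list were those of Klf4 (-3.71 ± 0.07), Nr0b1 (-3.6 ± 0.11) and the AKT coactivator Tcl1 (-3.14 ± 0.10).

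The difference from WT was positive for 13 of the 16 naive genes and negative for 3. The largest were Fgf4 (3.22 ± 0.16), the growth factor that pushes stem cells toward differentiation, Nr0b1 (2.9 ± 0.24) and Nanog; Prdm14, which holds down the de novo DNA methyltransferases, had 2.81 ± 0.30. The 3 that went the other way were Klf4 (-1.0 ± 0.10), Klf5 (-0.68 ± 0.08) and Tbx3 (-0.45 ± 0.08), so Klf4 and Klf5 fell further in fullKO than in WT. Tbx3 was the member that rose, from 132 and 147 to 235, 235 and 233 CPM. Gbx2 did not pass the test in fullKO, at 47 and 38 and 42, 45.2 and 35.9 CPM, while it fell in WT (-2.3, difference 2.24 ± 0.16). From alphaKO, 12 genes differed upwards and 2 downwards, with smaller values such as 0.82 ± 0.07 for Nanog.

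General pluripotency genes showed the same order. Of 12 genes, 9 fell, 1 rose, and all 12 had a positive difference from WT. Pou5f1 (Oct4) was at 662 and 648 CPM at day 0 and 123, 115 and 121 CPM at day 2 (-2.45 ± 0.06), and in WT it went from 615, 621 and 611 to 24.9, 25.9 and 23.3 CPM (-4.64 ± 0.06). The difference of change was 2.19 ± 0.09 (adjusted p = 4e-24). Sox2, which is shared with neural progenitors, fell from 678 and 729 to 176, 159 and 156 CPM (-2.11 ± 0.05), a little less than in WT (-2.42, difference 0.32 ± 0.07). Tdgf1 (Cripto), the Nodal coreceptor, fell from 791 and 777 to 38.1, 32 and 35.9 CPM (-4.47 ± 0.06), and Utf1 from a mean of 392 to 58.7 CPM. Sall4 and Zfp281, 2 zinc finger factors, did not pass the test in fullKO (-0.05 and 0.01, but 0.14 and 0.2, both called higher, with total-count scaling) and fell in WT (-0.92 and -0.70; differences 0.87 and 0.71). Lin28a, which blocks let-7 maturation, rose by 0.14 in fullKO (0.09 and not called without replicate 2 of day 0) and fell in WT (-0.44).

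Genes of the formative state, through which naive cells pass on their way to lineage choice, fell less than in WT or rose. Of 13 tested genes 3 rose and 8 fell, with medians of -0.94 in fullKO and -2.53 in WT; 12 of 13 had a positive difference from WT and none a negative one. Dnmt3a, a de novo DNA methyltransferase, was at 325 and 298 CPM at day 0 and 294, 302 and 298 CPM at day 2. The days overlapped and the gene was not called (with total-count scaling it was called higher, at 0.13); its log2 fold change was -0.06 ± 0.05 (adjusted p = 0.306), while in WT it went from 687, 692 and 663 to 114, 124 and 117 CPM (-2.53, difference 2.46 ± 0.08). Dnmt3b, its partner, fell from 394 and 362 to 134, 145 and 144 CPM (-1.42 ± 0.05; -3.32 in WT). Sox3, which marks the step to neural fate, rose from 2.62 and 3.63 to 23.1, 24.3 and 20.8 CPM (2.87 ± 0.19), with no overlap, and was not called in WT (-0.26, difference 3.13 ± 0.24). Fgf5, the usual marker of the primed epiblast, rose from a mean of 1.32 to 4.21 CPM (1.68) and fell in WT (-1.0). Otx2 fell from 45.3 and 42.5 to 2.28, 2.16 and 2.26 CPM (-4.29 ± 0.13; -7.52 in WT) and Foxd3 by 2.54 (-5.76 in WT). Against alphaKO the group was mixed, with 5 positive and 4 negative differences; Eomes differed by 2.1 ± 0.19 and Lef1 by -1.5 ± 0.16.

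Among genes that write and remove DNA methylation, more fell than rose. Of 10 genes 6 fell and 1 rose, and 8 had a positive difference from WT. Tet1, the oxidase of methylcytosine in stem cells, fell from 1052 and 1124 to 129, 136 and 140.2 CPM (-3.01 ± 0.06), and Tet3, which is used in later cells, rose from 8.51 and 8.85 to 30.5, 32.4 and 31.8 CPM (1.86 ± 0.10). Dnmt3l, a cofactor of the de novo enzymes, fell by 0.21 in fullKO (-0.09 and not called without replicate 1 of day 0, and -0.01 with total-count scaling) against a log2 fold change of -1.39 in WT. The maintenance enzyme Dnmt1 fell by 0.49, with -0.46 in WT and no call for the difference.

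The LIF pathway, which keeps mouse stem cells undifferentiated through STAT3, fell in 9 of 13 genes and rose in 3. The receptor Lifr fell by 2.08 and Stat3 from 177 and 184 to 43.4, 44 and 49.1 CPM (-1.99 ± 0.06). Socs3 and Bcl3, which STAT3 switches on, fell from a mean of 139 to 11.4 CPM (-3.61 ± 0.09) and from 48.6 to 3.52 CPM (-3.79 ± 0.12). For Socs3, Bcl3 and Pim3 the fall was larger than in WT (differences -0.47, -1.1 and -0.53; that of Socs3 was -0.34 and not called without replicate 2 of WT day 2), the reverse of most naive genes. The kinase Pim1 rose by 1.05 (0.64 in WT), and Jak1 by 0.52.

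Genes of several early lineages rose. Of 20 genes of primitive endoderm and its products 16 rose and none fell (Hnf4a was at -0.83, called lower only without replicate 2 of day 2, at -1.01, and in fits of fewer groups), with a median of 2.34, or 2.19 with genes at 0 at day 0 set at their limit. The regulators Gata6, Sox17 and Foxa2 went from 2.14 and 1.98 to 18.8, 23 and 20.9 CPM (3.34 ± 0.17), from 0.178 and 0.132 to 6.69, 7.51 and 6.9 CPM (5.43 ± 0.37) and from 0.357 and 0.198 to 44.9, 39.5 and 37 CPM (7.13 ± 0.24). None of the 3 overlapped between days, and none had a called difference from WT. The endocytic receptor Cubn and its adaptor Dab2 rose from 2.67 to 106 CPM and from 6.81 to 90.2 CPM, more than in WT (differences 1.57 ± 0.31 and 2.1 ± 0.15). Basement membrane collagens Col4a1 and Col4a2 rose by 2.5 and 2.37, against 0.73 and 0.45 in WT. Pdgfra, a receptor of endoderm and mesenchyme, rose in fullKO (1.26) and fell in WT (-1.09, difference 2.35 ± 0.20). Lama1, the laminin chain of that membrane, rose less than in WT (0.83 against 2.38). The collagens and Pdgfra are also made by fibroblasts, whose 7 markers summed to 65.9 to 76.6 CPM in fullKO at day 2 and to 579 to 650.3 CPM in WT; their part in these differences was not tested. The 7 endoderm markers summed to 21.2 and 23 CPM at day 0 and 216 to 253 CPM at day 2.

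Genes used as trophoblast markers rose in 9 of 12 tested members, but the defining Elf5 and Prl3d1 had too few counts to test. Krt8 was at 11 and 13.1 CPM at day 0 and 181, 179 and 198 CPM at day 2 (3.95 ± 0.12), a simple-epithelium keratin that rose further in WT (5.9, difference -1.95 ± 0.20). Its partner Krt18 reached 243, 241 and 270.2 CPM (4.61 ± 0.13). Gata3 and Gata2 rose from under 1 CPM to a mean of 20.5 and 14.7 CPM (5.87 and 4.27), and Krt7 to 12 CPM. Tfap2c, which is shared with germ cells and stem cells, fell by 2.15. Tead4 was not called in fullKO, at 28.1 and 30.2 and 28.3, 27.5 and 30.1 CPM, and rose in WT (1.96, difference -1.99 ± 0.15).

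Neural progenitor genes mostly rose, and neuronal genes were near the background. Of 16 tested neural progenitor and patterning genes 11 rose and 1 fell, while of 17 neuronal genes 6 rose and 6 fell. Msx1, a homeobox gene of the dorsal neural tube and neural crest, went from 0.416 and 0.396 to 72.5, 69.6 and 63.5 CPM (7.37 ± 0.19). Sox1, the earliest neural-specific SoxB1 gene, went from 9.34 and 10.4 to 63, 58.8 and 54.6 CPM (2.58 ± 0.12), a smaller rise than in WT (difference -0.61 ± 0.17, or -0.55 and not called without replicate 2 of day 0), as was that of the intermediate filament Nes (1.36 against 2.52). Pax6, a regulator of neural progenitors, was at 4.34 and 5.88 CPM and then 17.1, 20.2 and 18.8 CPM (1.88 ± 0.15). It rose by 1.8 in WT (difference 0.08 ± 0.21, not called) and by more, 4.27, in alphaKO (difference -2.39 ± 0.27). Irx3 rose by 4.28, more than in WT (1.82 ± 0.32), and Olig2 fell from 36.9 to 4.93 CPM. Of neuronal genes, the tubulin Tubb3 fell from 234 and 216 to 90.2, 78.8 and 71.5 CPM (-1.49 ± 0.08), and was not called in WT (-0.09). Stmn2 fell from a mean of 328 to 65.4 CPM, a gene already high at day 0, and the growth cone protein gene Gap43 rose by 1.74. Dcx, a defining neuronal gene, had no count at day 0 and was at 2.38, 2.21 and 2.32 CPM at day 2, at least 24.5-fold higher.

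Mesoderm genes rose in 10 of 15 tested members, mostly to low levels. Hand2 and Tbx20, factors of heart and limb mesoderm, reached a mean of 5.63 and 5.44 CPM (4.85 and 2.62). The general mesoderm factors Mixl1 and Tbx6 were not called, at 1.31 and 0.742 CPM. Kdr, the VEGF receptor of the endothelial lineage, rose less than in WT (0.74 against 2.82) and less than in alphaKO (-2.37 ± 0.45), and its rise in fullKO was 0.62 and 0.61 and not called without replicate 2 of day 0 or replicate 2 of day 2.

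Signalling genes split within each pathway. In the FGF and ERK list, 8 of 18 rose and 6 fell; 11 had a positive and none a negative difference from WT (edgeR, adjusted p under 0.05). The ligand Fgf4 fell from 170.3 and 193 to 31, 23.2 and 26.2 CPM (-2.76 ± 0.08; -5.98 in WT). The receptors Fgfr1, Fgfr2 and Fgfr3 rose by 0.93, 2.14 and 2.34. Feedback genes of ERK parted: Dusp6 rose from 93.1 and 87.6 to 282, 266 and 237 CPM (1.53 ± 0.07) and Spry4 fell from 284 and 263 to 41.4, 44.2 and 39.1 CPM (-2.72 ± 0.07, difference from WT 1.77 ± 0.11). The ERK-driven factors Etv4 and Etv5 fell by 2.17 and 1.14.

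In the Nodal and BMP list 11 of 18 rose and 6 fell. The ligand Nodal rose from 75.4 and 74.8 to 167, 160.1 and 157 CPM (1.1 ± 0.07), and its 2 secreted antagonists parted. Lefty1 rose from a mean of 198 to 406 CPM (1.04 ± 0.09), and Lefty2 fell from 593 and 605 to 154, 152 and 136 CPM (-2.02 ± 0.06), against -0.28 in WT (difference -1.75 ± 0.08). Bmp4 fell from 44.5 to 9.35 CPM (-2.25; -0.55 in WT). The BMP-responsive inhibitors Id1 and Id2 rose from 6.82 to 67.6 CPM (3.3) and from 5.24 to 145 CPM (4.79). Nog, a BMP antagonist, had no count at day 0 and was at 2.89, 2.55 and 2.11 CPM at day 2, at least 26.8-fold higher.

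In the Wnt list 13 of 22 rose and 7 fell. The ligands Wnt3 and Wnt6 rose to a mean of 6.18 and 6.61 CPM (3.52 and 3.38), both less than in WT (differences -1.31 ± 0.49 and -2.76 ± 0.66), although the call for Wnt3 was lost on leaving out any of 6 of the 11 libraries (adjusted p up to 0.173). The receptors parted, with Fzd2 rising from 9.62 to 76.9 CPM and Fzd5 falling from 217 to 43.6 CPM. Dkk1, a secreted Wnt antagonist, had no count in fullKO at day 0 and was at 7.5, 8.93 and 9.11 CPM at day 2, at least 90.7-fold higher. In WT its means were 0.391 and 14.7 CPM and in alphaKO 1.26 and 11.2 CPM. Axin2, the common readout of the pathway, rose by 0.67 against 1.03 in WT, and Notum, which removes the lipid of Wnt proteins, fell by 3.37.

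Genes of the cell cycle fell by small amounts. All 18 genes of G2 and mitosis and 15 of 18 of DNA replication fell, with medians of -0.48 and -0.45 in fullKO and of -0.82 and -0.84 in WT. Total-count scaling moved the median fullKO change of all genes up by 0.194, and with it Bub1 was at -0.09 and not called. The difference from WT was positive for 14 of the genes of G2 and mitosis and 16 of those of replication. It was negative for none of either list, next to 15.7% of all genes with a positive difference. From alphaKO, 2 and 2 of them differed upwards. Examples are the mitotic cyclin Ccnb1, from 311 and 321 to 188, 169 and 188 CPM (-0.80 ± 0.05; -1.48 in WT), and the replicative helicase subunit Mcm5, from 974 and 959 to 643, 626 and 639.9 CPM (-0.60 ± 0.04; -1.09). Ccne1 fell the most, from a mean of 299 to 103 CPM. D cyclins, which open G1, parted: Ccnd1 fell by 1.37 and Ccnd2 rose from 62.2 and 45 to 323, 314 and 292 CPM (2.53 ± 0.09). Ccnd2 rose by 0.41 in WT (difference 2.12 ± 0.12, adjusted p = 6.3e-19), and Ccnd3 rose by 0.19 in fullKO (0.13 and not called without replicate 2 of day 0) and fell in WT (-0.45). Mycn fell from 300.1 to 39.1 CPM (-2.94), and Myc was not called, at 50.5 and 47.4 CPM, but was called lower (-0.29) without replicate 2 of day 0. The CDK inhibitor Cdkn1c rose by 2.17.

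The change of most p53 targets was lower than in WT. In fullKO 11 of 20 members rose and 7 fell, with medians of 0.50 in fullKO, 0.63 in WT and 0.37 in alphaKO. The difference from WT was negative for 14 and positive for 1, Sesn1, against 12.8% of all genes with a negative one; from alphaKO 4 were negative and 3 positive (3 and 5 with total-count scaling). Trp53 itself fell from 603 to 327 CPM, with a difference from WT of 0.15 ± 0.06 that was not called here but was called, at 0.15 to 0.19, with DESeq2, RLE or total-count scaling, a filter at 1 CPM and 4 of the fits that left out a library. Cdkn1a (p21), which stops the cycle, was at 61.1 and 56 CPM at day 0 and 88.3, 74.8 and 78.1 CPM at day 2 (0.46 ± 0.10). In WT it went from 64.4, 83.2 and 78.5 to 196, 189.8 and 189 CPM (1.35; difference -0.89 ± 0.13, adjusted p = 2.2e-07). Ccng1, Mdm2 and Perp rose by 1.17, 0.74 and 2.36, against 1.88, 1.39 and 3.63 in WT. The proapoptotic Bbc3 (Puma) fell in fullKO (-0.61) and rose in WT (0.61). In the list of apoptosis regulators 10 of 18 rose and 6 fell, with Bcl2l11 (Bim) rising by 1.62 and Bid falling by 1.86.

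Histone chaperones mostly fell, while the Nap1l genes other than Nap1l1 rose or were not called. Of 24 genes, Nap1l1 itself included, 15 fell and 4 rose (12 and 7 with total-count scaling), with a median of -0.34. Nap1l4, the paralog used in most tissues, was at 211 and 209 CPM at day 0 and 193, 198 and 199.6 CPM at day 2 and was not called (-0.09 ± 0.05, adjusted p = 0.0709), while with total-count scaling it was called higher, at 0.1. Nap1l2 and Nap1l5, which are neuronal and imprinted relatives, rose from 2.6 and 0.918 to 7.56 and 2.82 CPM. The chaperones Set, Npm1 and Nasp fell by 1.04, 0.84 and 0.93. The largest fall was that of Chaf1b, a subunit of the replication-coupled chaperone CAF-1, from 141 and 144 to 54.4, 51.4 and 55.9 CPM (-1.4 ± 0.06).

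Of 20 Polycomb genes 11 fell and 6 rose. Phc1, which is high in stem cells, fell from 834 and 853 to 221, 218 and 205 CPM (-1.97 ± 0.04; -3.11 in WT), and Jarid2, which brings PRC2 to its targets, fell by 0.8 against a log2 fold change of -1.91 in WT. The chromodomain subunits shifted: Cbx8 and Cbx2 rose by 3.82 and 0.87, while Cbx7, the form of stem cells, was at 283 and 269 CPM (not called, or higher by 0.12 with total-count scaling) and Cbx6 fell by 0.55. Bmi1 rose from 6.79 to 41.1 CPM. Mtf2 rose in fullKO (0.16; 0.12 without replicate 2 of day 0 and 0.11 without replicate 3 of day 2, neither called) and fell in WT (-0.61; difference 0.77 ± 0.07).

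Metabolic genes of the stem cell state went down together. Of 16 genes of glucose uptake and glycolysis 14 fell, and the 2 that rose were the transporters Slc2a1 (0.99) and Slc2a3 (0.67). Pdk1, a kinase that inhibits pyruvate dehydrogenase, fell from 351 and 363 to 26.1, 24.7 and 27.1 CPM (-3.78 ± 0.06). The phosphofructokinase Pfkp fell from 378 and 395 to 46.2, 46.4 and 45.7 CPM (-3.07 ± 0.06). Ldha, which makes lactate, fell from a mean of 1546 to 388 CPM. Tdh, the threonine dehydrogenase on which mouse stem cells depend, fell from 676 and 687 to 32.5, 26.6 and 31.1 CPM (-4.5 ± 0.06). WT fell further (-6.68; difference 2.18 ± 0.11). In the whole list of threonine, glycine, serine and one-carbon enzymes 14 of 18 fell, with Gldc falling by 2.36, Shmt1 by 1.83 and Psat1 by 1.7. Cytosolic ribosomal protein genes fell in 81 of 84, with a median of -0.76, and the other 3 were not called; pseudogenes of this family make single counts uncertain. Of 7 tested mitochondrial messages 6 rose, with a median of 0.72.

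Genes of the amino acid stress response mostly fell in fullKO. Of 14 genes driven by ATF4 or the unfolded protein response 9 fell and 4 rose (median -0.52), while in WT 6 fell and 7 rose (median 0.14) and in alphaKO 6 fell and 7 rose (median 0.06). The difference was negative for 9 from WT and 9 from alphaKO, next to 12.8% and 7.93% of all genes. Atf4 itself fell from 455 and 464 to 253, 256 and 252 CPM (-0.86 ± 0.04; -0.42 in WT). The ATF4 targets Trib3 and Chac1 fell from 71.2 to 10.5 CPM (-2.76) and from 44.5 to 5.97 CPM (-2.9), with differences from WT of -1.51 ± 0.15 and -1.04 ± 0.23. Ddit4, an inhibitor of mTORC1, fell in fullKO (-0.58) and rose in WT (0.43) and alphaKO (0.52). Ddit3 (CHOP) was not called in fullKO (0.13, or 0.33 and called with total-count scaling) and rose in WT (1.49). Atf3 was at 5 and 6.93 CPM at day 0 and 13.3, 12.3 and 15.6 CPM at day 2 (1.21 ± 0.16). WT started lower and ended higher, at 1.28, 1.17 and 1.58 and then 31.3, 31.5 and 28.2 CPM, and the difference of change was -3.28 ± 0.26 (adjusted p = 6.1e-14).

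Sterol synthesis genes set fullKO apart from alphaKO. In fullKO 6 of 19 rose and 8 fell, a split that turned to 8 and 2 when libraries were scaled by total count. The difference from alphaKO was negative for 12 and positive for none, and from WT negative for 7 and positive for 1. Hmgcs1, an early enzyme of the pathway, rose by 0.56 in fullKO and 1.04 in alphaKO (-0.48 ± 0.06).

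The change of most epithelial genes was lower than in WT. Of 14 genes 6 rose and 5 fell, near the background, but the difference from WT was negative for 11 and positive for none. Cdh1 (E-cadherin), the adhesion molecule of stem cell colonies, fell from 672 and 665 to 463, 447 and 463 CPM (-0.55 ± 0.05) and rose in WT (0.26; difference -0.81 ± 0.07). In alphaKO it fell too (-0.62). The desmosomal gene Dsp rose from 14 and 15.5 to 116, 120.1 and 123 CPM (3.03 ± 0.11), less than in WT (4.93). Cldn4, a tight junction protein gene, fell in fullKO (-0.37) and rose in WT (1.4) and alphaKO (0.38). Of mesenchymal genes, N-cadherin (Cdh2) rose from 4.8 to 57.3 CPM (3.57 ± 0.11; 3.63 in WT) and Snai1 by 1.95; in that list 7 of 10 rose and 1, fibronectin (Fn1), fell. Fibroblast genes fell in 8 of 15, among them Col3a1 (-3.31) and Thy1 (-3.88), and rose in 6, among them the receptor Pdgfrb, which fell in WT (1.87 and -0.64), and the contractile genes Acta2 and Cnn1, which rose more in WT (1.84 and 1.51 against 3.96 and 3.52).

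**Figure D3:**
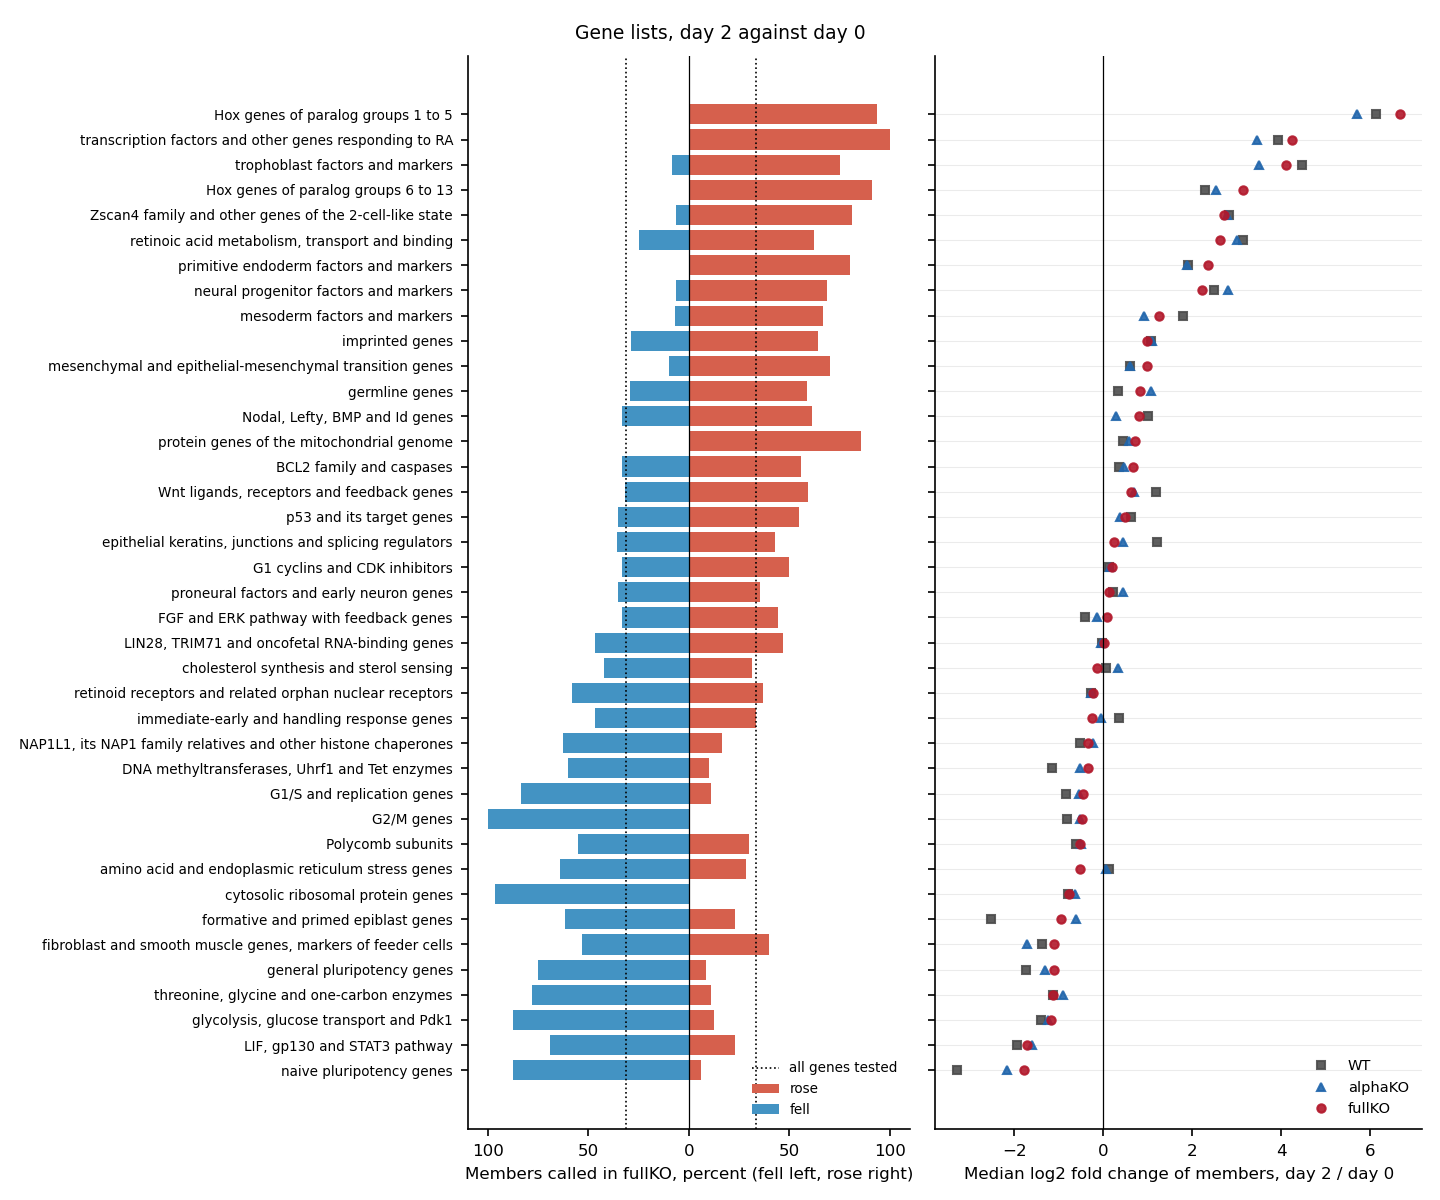
The left panel gives, for each of the gene lists, the percentage of tested members that rose or fell in fullKO, with dotted lines at the shares of all tested genes, 33.5% and 31.4%; the right panel gives the median log2 fold change of the list in fullKO, WT and alphaKO. Naive and formative genes lie higher (fell less) in fullKO than in WT, and all 18 genes of G2 and mitosis fell with TMM scaling.

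Groups of genes with special regulation also moved. Genes of the 2-cell-like state, a rare state of stem cell cultures, rose in 13 of 16 tested members, with a median of 2.72 (2.83 in WT) and no called difference from WT in either direction. Zscan4d was at 3.75 and 4.49 CPM at day 0 and 56, 52.3 and 57.4 CPM at day 2 (3.75 ± 0.14). Zscan4 and Usp17l genes are near-identical copies, so the counts of single members are uncertain. Imprinted genes rose in 18 of 28 and fell in 8. Peg10, a paternally expressed gene of retroviral origin, rose from 219.9 and 207 to 2924, 3018 and 2825 CPM (3.78 ± 0.06), and the growth factor Igf2 from 1.25 and 1.19 to 22.1, 24.2 and 24.4 CPM (4.26 ± 0.24). H19, the maternal neighbour of Igf2, fell (-1.45), less than in WT (-2.83); H19 and Igf2 can also come from fibroblasts, and the part of the fibroblast markers was not tested. The maternal transcripts Meg3 and Rian fell by 0.63 and 0.39, while Dlk1, paternal at the same locus, rose by 1.82. Rtl1, also paternal there, fell (-0.90), so not every gene known as paternal at the locus rose. Alleles were not counted apart, and reads of overlapping antisense genes cannot be told apart, so these values do not show the change of either allele. In the germline list 10 of 17 rose and 5 fell; Ddx4 (Vasa) rose by 1.33 and Dazl by 1.72, the latter more than in WT (1.8 ± 0.24).

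The largest fitted rises among protein-coding genes with at least 5 CPM and no overlap between days were those of Hoxb5, Csn3, Cyp26a1, Hoxa5, Hoxb2, Tmem132e, Dkk1 and Slc25a21. Csn3, kappa-casein, had no count at day 0 and was at 49, 46.7 and 40.7 CPM at day 2, at least 484-fold higher. Tmem132e was at 9.93, 9.57 and 9 CPM (at least 101-fold) and Slc25a21 at 6.28, 5.99 and 6.79 CPM (at least 67.7-fold). In all, 6 of the 8 had no count at day 0, and their place rests on fitted values that depend on the prior count. The limits of Slc25a21, Dkk1 (at least 90.7-fold) and Tmem132e lie below the ratio of Arg1 (416-fold), which is not among the 8. The largest falls were those of Mmp3, Col6a3, Ly6g6e, Chrna9, Krt17, Kirrel2, Pirt and Nphs1. The matrix protease Mmp3 fell from 22.5 and 15.1 to 0.152, 0 and 0 CPM and the collagen chain Col6a3 from 56 and 39.4 to 0.253, 0.343 and 0.632 CPM. These 2 are made by fibroblasts, were far higher in WT at day 0 (148 and 241 CPM), and fell along with the 7 fibroblast markers, whose part was not tested. Nphs1 (nephrin) fell from 81.3 and 88.3 to 2.13, 2.55 and 2.47 CPM (-5.15 ± 0.12; -6.92 in WT) and its relative Kirrel2 from 31.8 and 31.2 to 0.861, 0.981 and 0.632 CPM (-5.24 ± 0.18; -5.78). Krt17 fell from 24.9 and 29.4 to 0.658, 0.736 and 0.684 CPM (-5.27 ± 0.24), further than in WT (difference -1.84 ± 0.44).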

How the data were processed

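Bulk RNA was sequenced in 26 libraries; the 5 fullKO libraries of days 0 and 2 carry the comparison. Per the labels' protocols, RNA was extracted with RNeasy columns and libraries were made with a KAPA stranded mRNA kit. Per the submitters' processing notes, FastQC, STAR 2.7.1a and mm10 were used; for the counting step, tool, strand use and gene models were not given in the sources used here, and reads of overlapping antisense genes cannot be told apart. The authors deposited raw counts per gene (55471 genes, of which 55230 matched gene identifiers of GENCODE M21, used for symbols, positions and gene types). All 26 sample columns were used.

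Counts were fitted in edgeR 4.0.16 (R 4.3.3; quasi-likelihood, TMM scaling, 1 mean for each of the 9 groups of genotype and day, with 17 residual degrees of freedom). The shared biological coefficient of variation was 0.0495. The filter on low counts left 18412 genes, and Benjamini-Hochberg p-values were adjusted over all of them. Pooling the spread over 9 groups gave a test although fullKO had 2 libraries at day 0. A limit for no count was 3 counts over a group. Intervals of ratios from 1 to 3 counts are exact (95%) and, like these limits, cover counting error only. The script was tested on simulated counts. Alternatives were RLE and total-count scaling, DESeq2 1.42.0, 2 other filters, a replicate block, fewer groups in the fit and each library left out. Promoters came from RefSeq (GRCm38.p6, 27025 genes). Medians over lists and counts of called members carry no test.

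The members and the 39 gene lists were chosen with earlier results of these data known. Of the genes named, 251 followed a rule: Nap1l1 and preset markers, up to 4 called list members with the largest change (and 2 in the opposite direction, and 3 by difference from WT) at 5 CPM or more, the 8 largest rises and falls, and the 6 largest differences in each direction; 67 further genes were chosen after their values were seen. Some genes that were measured and counted in the lists are not reported here.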

Additional observations from a re-analysis of the deposited data

Results flagged for a closer look

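The change from day 0 to day 2 differed between lines by a test of the difference itself. Against WT it was higher in fullKO for 2897 genes and lower for 2363 (edgeR's quasi-likelihood test, Benjamini-Hochberg adjusted). Of the 2897, 1407 fell in both lines, 505 rose in both, 174 moved in opposite directions, 319 were called in fullKO alone and 476 in WT alone; 902 differed by at least 2-fold. Of the 2363, 994 rose in both lines, 284 fell in both and 216 moved in opposite directions, and 565 differed by at least 2-fold. Against alphaKO 1584 genes were higher and 1460 lower, of which 613 and 139 by at least 2-fold. That split was 2189 and 840 with total-count scaling, and 1200 and 825 without replicate 1 of fullKO day 0. Both sets use the same fullKO libraries.

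Among called protein-coding genes with at least 5 CPM in a group, the largest fitted positive differences from WT were those of Hoxb5 (6.18), Hoxb2 (5.93), Csn3 (5.07), Dkk1 (4.99), Enpp2 (4.54) and Igf1 (4.16). Hoxb5, Hoxb2, Csn3 and Dkk1 had no count in fullKO at day 0, so their fitted differences depend on the prior count and are no bounds. Their day 2 means were lower in fullKO than in WT: 47.9 against 62.3 CPM for Hoxb5, 12.3 against 15.6 for Hoxb2, 45.5 against 78.1 for Csn3 and 8.51 against 14.7 for Dkk1. The calls of Csn3 and Dkk1 were lost without replicate 1 of fullKO day 0 (adjusted p = 0.069 and 0.0634) and without replicate 2 (adjusted p = 0.0594 and 0.0543). Igf1, a growth factor, went from 0.155 to 26 CPM in fullKO and from 0.764 to 6.8 CPM in WT. Enpp2 (autotaxin) fell in both lines, from 1.35 to 0.521 CPM in fullKO and from 13.1 to 0.217 CPM in WT. The 7 fibroblast markers summed to 220 to 333 CPM in fullKO and 2095 to 2777 CPM in WT at day 0; their part in the Enpp2 and Igf1 differences was not tested.

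By the same choice, the largest negative differences from WT were those of the gap junction gene Gjb2 (-4.33), Fam181b (-3.63), Atf3 (-3.28), Fgf18 (-3.22), Nlrp6 (-3.21) and Sox6 (-3.01). Gjb2 rose from 1.02 to 3.08 CPM in fullKO and from 0.457 to 27.4 CPM in WT, and Sox6, a transcription factor, from 0.823 to 12.7 and from 0.288 to 36.8 CPM. Nlrp6 fell in fullKO, from 2.03 to 0.739 CPM (-0.84 and not called without replicate 1 of day 0, adjusted p = 0.161), and rose in WT. Fgf18, a secreted growth factor, was at 7.6 and 8.66 CPM in fullKO and was not called, and rose from 0.394 to 4.23 CPM in WT. Without replicate 1 of fullKO day 0 the difference of Fam181b was -2.42 and was not called (adjusted p = 0.238).

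Against alphaKO the genes chosen this way with positive differences were Dkk1 (7.03), Lhx1 (5.23), Hoxb2 (5.19), Hoxb5 (5.13), Tnfrsf11b (4.67) and Aldh3b2 (4.23). Lhx1, too, had no count in fullKO at day 0, and its day 2 mean was 6 CPM in fullKO and 14.5 CPM in alphaKO. Tnfrsf11b was not called in fullKO (0.126 and 0.286 CPM) and fell in alphaKO, from 5.09 to 0.443 CPM. Aldh3b2 had 1 count in fullKO at day 0. Several of these calls against alphaKO were lost when 1 library was left out. Without replicate 1 of fullKO day 0 the adjusted p was 0.0696 for Lhx1, 0.125 for Hoxb2 and 0.123 for Hoxb5, and without replicate 2 it was 0.053, 0.102 and 0.1002. Without replicate 3 of alphaKO day 0 it was 0.167 for Hoxb2 and 0.14 for Aldh3b2, and without replicate 2 of fullKO day 0 it was 0.111 for Aldh3b2. The negative differences were those of Chrna3 (-4.04), Pga5 (-3.22), Crygc (-2.66), Sp8 (-2.44), Hhip (-2.42) and Pax6 (-2.39). The call of Chrna3 was lost without replicate 1 or 2 of alphaKO day 0 (adjusted p = 0.0626 and 0.0653) and without replicate 1 or 2 of fullKO day 0 (0.184 and 0.0698), and that of Crygc without replicate 2 of fullKO day 0 (-2.16, adjusted p = 0.0906). Hhip, which binds hedgehog ligands, rose from 9.63 to 72.2 CPM in fullKO and from 2.29 to 91.8 CPM in alphaKO.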

How the results depend on the processing

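Asking for at least 2-fold left 3364 higher and 1727 lower genes in fullKO. Total-count scaling moved the median fullKO change of all genes by 0.194 and the share of calls that were higher from 51.6% to 64.2% (from 52% to 72.3% for the difference from alphaKO, with 840 lower genes). With it the signs of Nap1l1 (0.073), Dnmt3a (0.13), Cbx7 (0.12), Nap1l4 (0.102) and Sall4 (0.14) turned; the cause was not tested beyond that shift. Without 1 library at a time, genes higher ranged from 5313 to 5922 (at least 2-fold, 3020 to 3265) and genes lower from 5112 to 5625 (1587 to 1724). The difference from WT gave 2249 to 2766 higher and 1842 to 2327 lower genes, and that from alphaKO 1146 to 1664 and 825 to 1425. The 825, and the 1842 for WT, came without replicate 1 of fullKO day 0, and the 1146 and 2249 without its replicate 2; either leaves 1 library, assumed to vary like the other groups. The slope on the WT change was 0.898 to 0.934, and 0.936 over all genes. Over the named genes, 318 gene values of the fullKO change gave 4126 comparisons with an alternative, of which 4079 kept direction and side of the threshold, 33 (15 genes) lost the call, 9 (7 genes) gained it and 5 turned. For the difference from WT 5543 of 5721 kept both, 133 (37 genes) lost the call, 45 gained it and none turned, and for 19 genes against alphaKO 327 of 342 kept both and 15 lost the call. A replicate block gave 5967 higher and 5619 lower genes (2741 and 2251 for the difference from WT, 1448 and 1270 from alphaKO), with a slope of 0.912. Deviations of fullKO libraries with the same number correlated at 0.049 and 0.032. With 2 libraries at day 0 the deviations of one mirror those of the other, so these values cannot tell whether libraries of the same number were paired. Calls for genes with few counts at day 0 are limited by depth.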

Other observations

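Immediate early and stress genes did not move as 1 group. Of 15 tested genes 5 rose and 7 fell in fullKO (5 and 4 with total-count scaling), next to 33.5% and 31.4% of all genes, while in WT 9 rose and 2 fell. Jun, a subunit of the AP-1 transcription factor, was at 7.5 and 5.28 CPM at day 0 and 55.8, 50.2 and 44.2 CPM at day 2 (2.96 ± 0.13), a larger rise than in WT (difference 0.87 ± 0.17). Fos, its partner, went the other way, from 12.2 and 8.06 to 3.6, 4.76 and 3.84 CPM (-1.32 ± 0.25), and was not called in WT (0.10, difference -1.42 ± 0.33). Ier3 fell in fullKO, from 8.57 and 8.26 to 4.05, 4.86 and 4.16 CPM, and rose in WT (difference -1.3 ± 0.20). The difference from WT was negative for 7 genes of the list and positive for 2.

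RNA-binding proteins and targets of the Lin28 and let-7 system, which times early development, split evenly: of 15 genes 7 rose and 7 fell, and in WT 6 and 7. Hmga2, a chromatin protein and let-7 target, rose from 18.1 and 17.8 to 99.4, 91.9 and 81.3 CPM (2.34 ± 0.11), more than in WT (difference 0.87 ± 0.14), while Arid3a rose less than in WT (1.03 against 2.28). Igf2bp2, an mRNA-binding protein, fell from 148 and 159 to 37.7, 41.2 and 36.4 CPM (-2.0 ± 0.06). Tut4, which adds uridines to let-7 precursors bound by Lin28a, rose from a mean of 114 to 293 CPM (1.36). Of 18 regulators of the G1 phase 9 rose and 6 fell.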
